A study of Drosophila melanogaster with 40 samples.

Results

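The 8 genes described here carry cytokine and stress-kinase damage signals in the fruit fly Drosophila melanogaster. They are the ligands upd2 and upd3, the inhibitor Socs36E, the phosphatase puc, the transcription factor gene Ets21C, the proteases Mmp1 and Mmp2, and the death gene hid. They were found by name among the 17609 genes of the count table, each by 1 FlyBase identifier, although they were proposed with earlier results of these data known. All 8 passed the count filter and entered every test. Counts summed over 40 libraries ranged from 517 for upd2 to 66787 for puc.

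RNA of whole flies was sequenced from the 3' end of messenger RNA. Each library came from flies labelled insulin ablated or wildtype, and young or old. Heated flies were sampled 0, 1, 2, 4, 6 or 8 h later, and each combination of genotype and age had 1 library of unheated flies at 4 h. Heated wild-type flies were classified as non-climbers or climbers, and the heated ablated flies were climbers only. There were 7 libraries of ablated old flies, 7 of ablated young flies, 13 of wild-type old flies and 13 of wild-type young flies. The labels used here give no age in days, no sex, no number of flies in a library, no strain, no driver or means of ablation and no statement of which cells or genes were ablated. Each condition had 1 library, so the p-values measure differences against the scatter left around an additive model of genotype, age, hour and behaviour.

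In the fly, Upd ligands bind the receptor Domeless, and the kinase Hopscotch then activates the transcription factor Stat92E. This JAK/STAT pathway carries damage signals from the gut, the blood cells and other tissues, and upd2 is also known as a fat body signal that acts on insulin release. The JNK pathway is a stress-activated kinase cascade that ends in the kinase Basket and the AP-1 factors Jra and Kay. In wounds, aged guts and imaginal discs it switches on cytokines, proteases, its own phosphatase and genes that drive cell death. Socs36E and puc are target genes that inhibit the pathway that induces them, so their RNA is a common readout of JAK/STAT and JNK activity.

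On the dm6 build, upd2 (FBgn0030904) lies on X:18240654-18243284, minus strand, and upd3 (FBgn0053542) on X:18277233-18284596, plus strand, with 33949 bases between them. Both belong to the cluster of Upd genes, which spans 68.6 kb with upd1. Their annotated proteins have 406 and 401 amino acids. Socs36E (FBgn0041184) lies on 2L:18138675-18152417 and Ets21C (FBgn0005660) on 2L:544925-552923, both on the minus strand. The phosphatase gene puc (FBgn0243512) lies on 3R:8105332-8122294, plus strand, and hid (FBgn0003997) on 3L:18167745-18185641, minus strand. Mmp1 (FBgn0035049) lies on 2R:24671294-24688184 and Mmp2 (FBgn0033438) on 2R:9611139-9683858, both on the minus strand. The last exon of Mmp1 overlaps Pof on the other strand, and that of Ets21C overlaps nAChRbeta3. The strand setting of the counting is not given in the sources used here, so reads of Mmp1 and Pof cannot be told apart where they overlap. Pof had 17.9 to 45.7 CPM (counts relative to library size, scaled by TMM factors) over the 40 libraries, and nAChRbeta3 had 0 in all of them.

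Several libraries stood apart or went against their labels. Total counts ran from 11714961 to 48747409 per library. The insulin-like peptide genes of the insulin-producing brain cells, Ilp2, Ilp3 and Ilp5, together had 0.220 ± 0.305 CPM in 14 ablated libraries and 2.26 ± 0.787 CPM in 26 wild-type libraries (SD; two-sided permutation test, p = 2e-05, the smallest its 100000 resamples can give). A heat index, the mean log2 CPM of 12 heat shock genes, was 4.57 in the ablated young control, against 1.63 to 3.37 in the other controls. It was 1.90 in the heated ablated young library of 6 h, against 4.27 to 8.23 in the other heated libraries. The first principal component of 931 non-coding transcripts split the libraries into a set of 28 and a set of 12. The larger set held all 26 wild-type libraries with ablated young 0 h and 1 h, and the smaller set held the other ablated libraries, so genotype and library set can hardly be told apart. The 5 labelled batches followed genotype, age and hour.

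**Figure D1:**
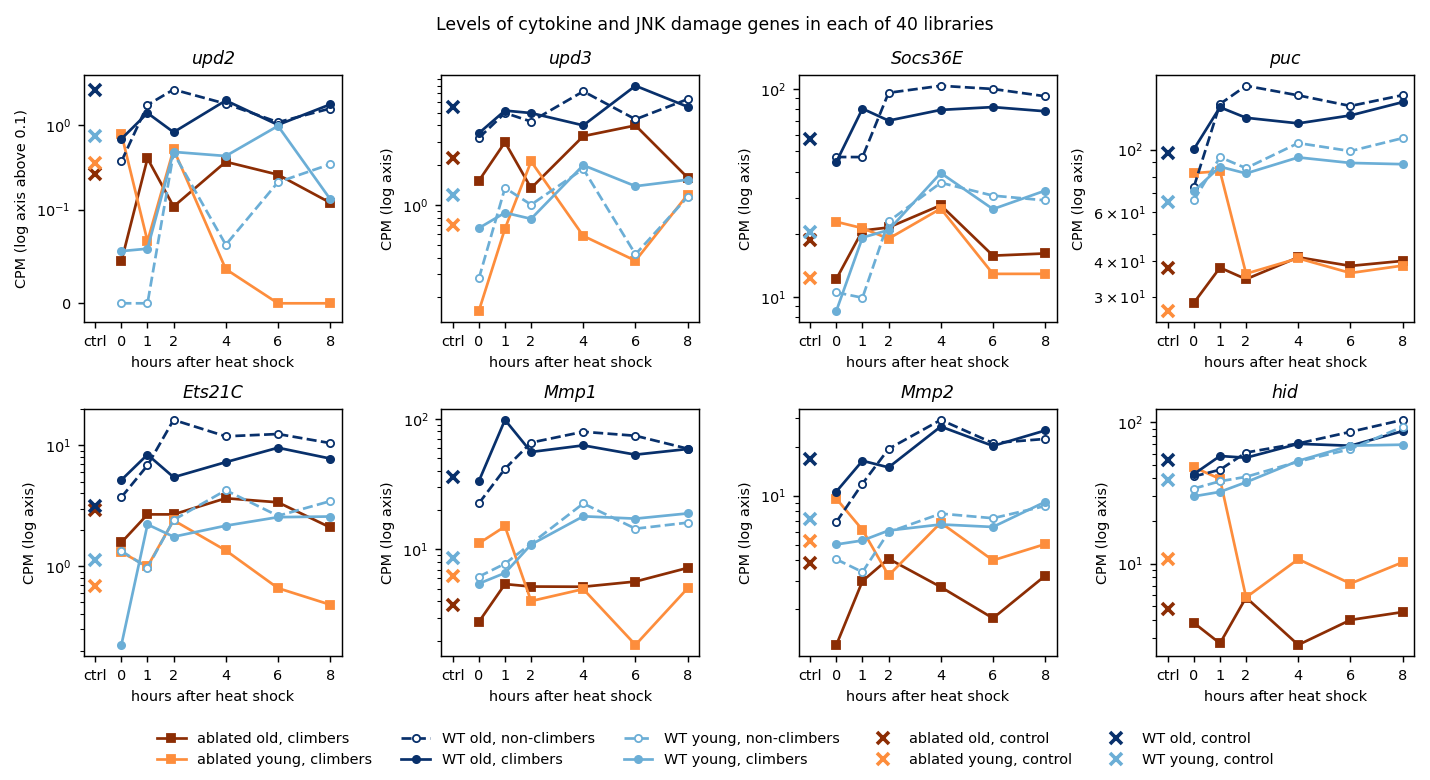
Level of each gene in each of the 40 libraries, in TMM-scaled CPM on a log axis (for upd2, linear below 0.1), against hours after heat shock, with unheated controls as crosses at the left. Squares are ablated and circles wild-type flies, open circles are non-climbers, and each point is 1 library. Old wild-type libraries lie above all young wild-type ones for upd3, Socs36E and, narrowly, Mmp1 (22.5 against 22.4 CPM). The share of all genes so separated was not counted. Ablated young flies have 48.0 and 39.7 CPM of hid at 0 h and 1 h and at most 10.8 CPM later.

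In old wild-type flies 6 of the 8 genes were higher than in young ones, with fitted folds between 0.59 and 2.23 on the log2 scale, and none was lower. Over all 11449 genes tested, 23.5% passed in this comparison (11.8% higher and 11.7% lower). The median of the 8 fitted log2 differences was 1.79, against 0.02 over all genes. In whole flies, fewer cells of a type and less RNA per cell cannot be told apart. The threshold was an adjusted p of 0.05 in edgeR's quasi-likelihood test with Benjamini-Hochberg adjustment over all genes, as everywhere below.

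The ligands had few counts, and upd3 was higher in old flies. Levels of upd3, the cytokine of damaged enterocytes and blood cells, ran from 3.21 to 7.99 CPM in old wild-type libraries (median 4.98, n = 13) and from 0.278 to 2.00 CPM in young ones (median 1.15, n = 13). These ranges did not overlap. The share of all genes without overlap between the ages was not counted, here or for the genes below. The fitted difference was 2.17 ± 0.35 on the log2 scale (SE; adjusted p = 1.91e-05), and old exceeded young in 13 of 13 matched pairs of libraries. For upd2, levels ran from 0.372 to 2.66 CPM in old wild-type libraries (median 1.58) and from 0 to 0.983 CPM in young ones (median 0.212). In young flies 2 libraries, the non-climbers of 0 h and 1 h, had no upd2 count, which allows up to 0.167 and 0.162 CPM (3 counts, counting error only). The fitted difference of upd2 was 1.95 ± 0.79 with an adjusted p of 0.0693, although old exceeded young in 13 of 13 pairs. It passed without the libraries of 6 h (2.47, adjusted p = 0.0308) and without both libraries in doubt, the ablated young control and 6 h (2.02, adjusted p = 0.0381). Per library upd2 had 0 to 51 counts, so its levels are the least precise of the 8.

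Both feedback inhibitors were higher in old flies. Socs36E, which blocks signalling from the Upd receptor, had 44.6 to 103.4 CPM in old wild-type libraries (median 79.2) and 8.58 to 39.4 CPM in young ones (median 23.0). The lowest old library thus lay above the highest young one. Its fitted difference was 1.62 ± 0.22 (adjusted p = 3.62e-06). The JNK phosphatase gene puc had 73.6 to 168.5 CPM in old libraries (median 141) and 65.0 to 109.8 CPM in young ones (median 88.7). Here the ranges overlapped, and the difference of 0.59 ± 0.18 was the smallest of those that passed (adjusted p = 0.0155).

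Among the effector genes, Mmp1, a protease that cleaves extracellular matrix, had 22.5 to 98.0 CPM in old wild-type libraries (median 58.6) and 5.46 to 22.4 CPM in young ones (median 11.1). The fitted difference was 2.23 ± 0.35 (adjusted p = 2.22e-05), the largest of the 8 in this comparison. The highest Mmp1 level belonged to 1 library, the old climbers of 1 h. Pof, which overlaps its last exon, had 30.2 to 39.5 CPM in old and 30.0 to 45.7 CPM in young libraries. Mmp2, the other matrix metalloproteinase, had 6.89 to 29.2 CPM in old libraries (median 19.3) and 3.39 to 9.15 CPM in young ones (median 6.42), and differed by 1.48 ± 0.25 (adjusted p = 2.93e-05). Ets21C, a stress-induced ETS factor, had 3.17 to 16.3 CPM in old libraries (median 7.78) and 0.223 to 4.25 CPM in young ones (median 2.21). Its difference was 1.96 ± 0.33 (adjusted p = 3.42e-05). The lowest Ets21C level in old flies was that of the unheated control.

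For hid, whose protein binds and blocks the caspase inhibitor Diap1, the age groups overlapped widely. It had 41.3 to 103.8 CPM in old wild-type libraries (median 61.0) and 29.9 to 92.8 CPM in young ones (median 41.1). The fitted difference of 0.42 ± 0.36 did not pass (adjusted p = 0.437), and old exceeded young in 12 of 13 pairs.

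**Figure D2:**
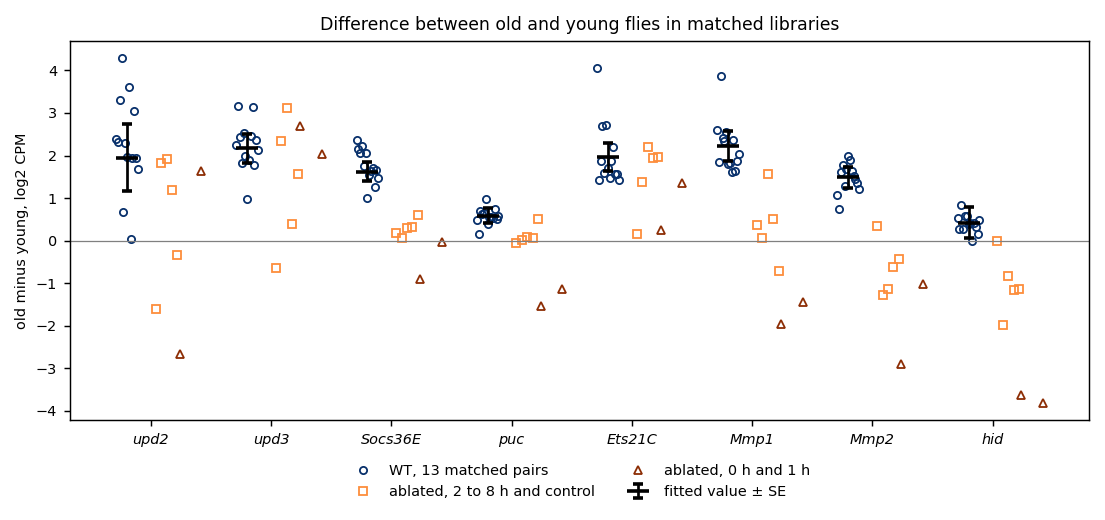
Old minus young in log2 CPM (prior count of 2) for each gene in matched libraries: 13 wild-type pairs as circles, ablated pairs of 2 h to 8 h and control as squares, ablated pairs of 0 h and 1 h as triangles. Bars are the fitted wild-type difference ± SE. All wild-type pairs lie above 0 except 1 for hid, and the ablated pairs of hid lie at or below 0.

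When the 26 wild-type libraries were fitted alone, all 8 genes passed, with 35.2% of genes called. The values were 2.05 ± 0.54 for upd2 (adjusted p = 0.00369) and 0.44 ± 0.07 for hid (adjusted p = 3.2e-05). Age and batch were largely joined. With batch as a covariate none of the 8 passed, and 79 of 12876 genes did (0.614%). At an unadjusted p under 0.05 there were 2 of the 8 and 1094 of the 12876 genes. The value of puc was then -0.027 ± 0.33, Mmp1 had 1.15 ± 0.62 and upd3 2.53 ± 0.68 (adjusted p = 0.0808). In the wild-type libraries alone with batch as a covariate, upd3 passed with 3.00 ± 0.63 (adjusted p = 0.0178), where 0.941% of genes did, and the 7 others had positive values between 0.13 for hid and 2.26 for upd2.

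Batch 2 was the only batch with both wild-type ages, and its old flies were from 0 h and 1 h and its young flies from 6 h, 8 h and the control. In that batch upd3 had 3.21 to 4.98 CPM in 3 old libraries and 0.423 to 1.55 CPM in 5 young ones. Socs36E had 44.6 to 47.0 CPM in the old and 20.6 to 32.4 CPM in the young libraries, and Mmp1 had 22.5 to 41.4 and 8.63 to 18.8 CPM. Ets21C had 3.72 to 6.82 CPM in the old and 1.13 to 3.45 CPM in the young libraries. These ranges did not overlap between the ages within the batch, whereas those of Mmp2, puc, hid and upd2 did. The share of all genes without overlap was not counted, and hour differed with age there.

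Marker genes of several cell types also moved with age in wild-type flies, and their part in the results was not tested. The gut progenitor markers esg and klu summed to 15.1 to 29.5 CPM in old and 9.95 to 17.3 CPM in young libraries, with both detected. Haemocyte markers (8 of 8 detected) summed to 29.4 to 47.5 CPM in old and 35.7 to 81.0 CPM in young libraries. Enterocyte markers (5 of 5 detected) summed to 534 to 1149 CPM in old and 776 to 1971 CPM in young libraries. Malpighian tubule markers (3 of 3 detected) did not overlap, with 74.0 to 117 CPM in old and 29.8 to 73.8 CPM in young libraries. Glia markers (2 of 2 detected) summed to 8.29 to 30.4 CPM in old and 5.62 to 14.0 CPM in young libraries. Muscle markers (5 of 5 detected) summed to 321 to 2437 CPM in old libraries (median 370.4) and 721 to 1670 CPM in young ones (median 912).

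Some other genes of the pathways were also higher in old wild-type flies, and the list counts below include members unless stated. Of 18 JNK components, 5 were higher and none lower, where 11.8% of all genes were higher and 11.7% lower. In the wild-type libraries alone 11 of the 18 were higher and none lower, and of 11 genes linked to JNK and AP-1 8 were higher and 1 lower, where 35.2% of all genes passed. Without the members these were 10 of 17 higher and none lower, and 4 of 7 higher and 1 lower. Non-members of the other lists gave fewer in those libraries. Of 11 JAK/STAT components 1 was higher, of 8 Stat92E-linked genes 2 and of 5 matrix genes 2, with none lower. Of 12 apoptosis genes 4 were higher and 2 lower. Over all libraries the 4 JNK components besides puc were msn (0.44 ± 0.11), a kinase at the head of the cascade, the adaptor Traf4 (0.78 ± 0.28), the scaffold POSH (0.36 ± 0.12) and the kinase Tak1 (0.23 ± 0.08). Of 11 genes linked to JNK and AP-1, 6 were higher and 1 lower, and of the 7 that are not members 2 were higher and 1 lower. Besides members these were the transcription factor gene Atf3 (0.69 ± 0.13), the filamin gene cher (0.72 ± 0.15) and Ilp8, a hormone of damaged imaginal discs, which was lower (-0.68 ± 0.19). Of 14 JAK/STAT components 3 were higher, among them upd3 and Socs36E. Of the 11 that are not members 1 was, the repressor gene ken (0.49 ± 0.10), which is near the share of all genes. Of 9 tested genes linked to Stat92E 3 were higher, among them vir-1 (1.21 ± 0.15), a known virus-induced JAK/STAT target, and chinmo (0.55 ± 0.20).

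Among 13 tested apoptosis genes, the caspase inhibitor gene Diap1 (0.48 ± 0.11) and p53 (0.28 ± 0.10) were higher in old wild-type flies and the effector caspase gene Drice was lower (-0.22 ± 0.08). Among 7 tested matrix protease genes and inhibitors, Mmp1 and Mmp2 alone passed.

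The hour after heat shock was set against 0 h and against the unheated controls. Between 8 h and 0 h, upd3 and Socs36E were higher at 8 h when all 40 libraries were fitted, and 10.5% of genes passed (6.46% higher and 4.03% lower). In wild-type flies each of the 8 genes had more CPM at 8 h than at 0 h in 4 of 4 series, a series being 1 age and behaviour followed over the hours. For upd2 in young flies this rests on 0 and 1 counts at 0 h. The ablated young flies ran the other way for 7 of the 8 genes, and their 0 h and 1 h libraries were those that fell in the wild-type library set.

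Levels of hid in old non-climbers were 41.3, 46.1, 61.0, 70.7, 85.5 and 103.8 CPM at 0, 1, 2, 4, 6 and 8 h. Young climbers had 29.9, 32.2, 37.6, 53.3, 68.2 and 69.3 CPM at the same hours. In all 4 wild-type series hid was highest at 8 h. In ablated young flies hid had 48.0, 39.7, 5.77, 10.8, 7.23 and 10.2 CPM, so that its level was lower from 2 h on, where the library set changed. In ablated old flies it stayed between 2.66 and 5.76 CPM. Over all libraries the 8 h minus 0 h value of hid was 0.40 ± 0.41 (adjusted p = 0.592), and in the wild-type libraries alone it was 1.28 ± 0.10 (adjusted p = 3.76e-10).

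Levels of upd3 in old non-climbers were 3.21, 4.98, 4.28, 7.25, 4.45 and 6.32 CPM over the hours, and in young non-climbers 0.278, 1.35, 1.00, 1.87, 0.423 and 1.15 CPM. In 6 of 6 series, ablated ones included, upd3 had more CPM at 8 h than at 0 h. Its 8 h minus 0 h value was 1.14 ± 0.37 (adjusted p = 0.0441) over all libraries. Levels of upd2 in old climbers were 0.690, 1.40, 0.828, 1.97, 1.01 and 1.77 CPM, with 2.61 CPM in the unheated old control, and its 8 h minus 0 h value was 0.26 ± 0.96 (adjusted p = 0.899).

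Socs36E in young climbers had 8.58, 19.3, 21.0, 39.4, 26.4 and 32.4 CPM over the hours, with its highest level at 4 h. In old non-climbers it had 47.0, 47.0, 95.7, 103.4, 99.9 and 92.1 CPM. The 8 h minus 0 h value was 0.74 ± 0.24 (adjusted p = 0.0475), and it missed the threshold without 2 h, without 4 h and without any 1 of the controls other than the ablated young one (adjusted p of 0.0508 to 0.0694). The value of upd3 missed it without 1 h (adjusted p = 0.0581). For Socs36E the mean of 6 h and 8 h against that of 0 h and 1 h gave 0.53 ± 0.17 (adjusted p = 0.0317). Socs36E was the only one of the 8 genes to pass there, where 17.8% of genes did (9.25% higher and 8.51% lower). It was also the only one to pass in the test of any difference among the 6 hours (adjusted p = 0.0316), where 8.71% of genes passed. Without both libraries in doubt, Mmp2 (0.56, adjusted p = 0.0412) and Ets21C (0.72, adjusted p = 0.0367) also passed between the later and the earlier pair of hours.

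The other 4 genes did not pass over all libraries. Mmp1 in young climbers had 5.46, 6.58, 10.9, 17.9, 17.2 and 18.8 CPM over the hours, and in old non-climbers 22.5, 41.4, 65.7, 79.5, 74.1 and 59.0 CPM. Mmp2 in old climbers had 10.6, 16.4, 14.9, 26.5, 20.2 and 25.1 CPM. Their 8 h minus 0 h values were 0.84 ± 0.38 for Mmp1 (adjusted p = 0.162) and 0.74 ± 0.27 for Mmp2 (adjusted p = 0.0723). Ets21C reached its highest level of all libraries, 16.3 CPM, in old non-climbers at 2 h, and had 0.223 CPM in young climbers at 0 h, which was 4 counts. The 8 h minus 0 h value of Ets21C was 0.86 ± 0.36 (adjusted p = 0.12). In old non-climbers puc had 73.6, 145.2, 168.5, 155.8, 142.8 and 156.1 CPM over the hours, the lowest of them at 0 h, and its 8 h minus 0 h value was 0.27 ± 0.20 (adjusted p = 0.402).

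**Figure D3:**
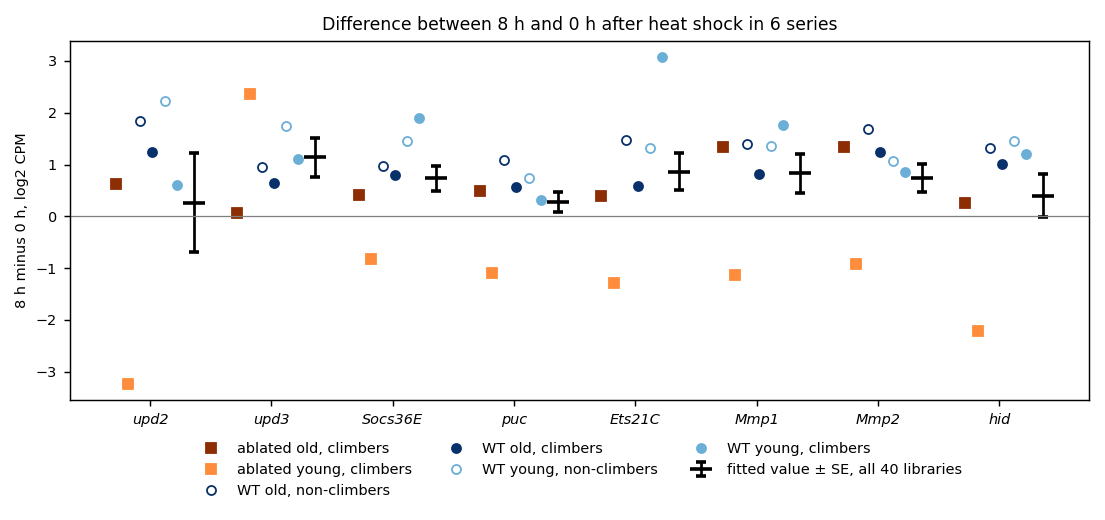
Difference of 8 h minus 0 h in log2 CPM (prior count of 2) for each gene in 6 series of heated flies, 1 point per series, with the fitted value ± SE over all 40 libraries as a bar. The 4 wild-type series lie above 0 for all 8 genes, and ablated young flies lie below 0 for all but upd3.

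Without ablated young 0 h and 1 h, 6 of the 8 genes passed between 8 h and 0 h (12.5% of genes called), and in the wild-type libraries alone 7 passed, all higher (12.4% of genes called). In wild-type flies alone these were hid, puc (0.68 ± 0.10), Mmp2 (1.23 ± 0.19), Socs36E (1.26 ± 0.23), Mmp1 (1.36 ± 0.30), Ets21C (1.42 ± 0.35) and upd3 (1.09 ± 0.34). The eighth, upd2, had 1.91 ± 0.76 (adjusted p = 0.0987). Hour and batch were partly joined. With batch as a covariate none passed over all libraries, where 2.38% of genes did. At an unadjusted p under 0.05 there were 0 of the 8 and 2011 of 12876 genes. In wild-type flies alone with batch 1, hid, passed (1.08 ± 0.18, adjusted p = 0.00229), where 0.783% of genes did.

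Hours can be compared inside 1 batch in a few series. In batch 1, the 7 genes other than upd2 had more CPM at 4 h than at 0 h in both young wild-type series. Young non-climbers had 1 count of upd2 at 4 h and 0 at 0 h, too few to compare. Socs36E had 35.4 CPM at 4 h and 10.5 CPM at 0 h in non-climbers, and 39.4 and 8.58 CPM in climbers. Mmp1 had 22.4 CPM at 4 h and 6.18 CPM at 0 h in non-climbers, and 17.9 and 5.46 CPM in climbers. In batch 5, which held all ablated old libraries, Mmp1 had 7.20 CPM at 8 h and 2.78 CPM at 0 h, Mmp2 had 3.22 and 1.21 CPM, and puc had 40.2 and 28.5 CPM. The 7 genes other than upd2 had more CPM at 8 h there, by 0.07 for upd3 to 1.34 for Mmp1 and Mmp2 on the log2 scale, with 1 library at each hour. Ablated young flies in batch 4 had less hid at 4 h than at 0 h (10.8 and 48.0 CPM). So it was for puc (41.0 and 82.4 CPM), Mmp1, Mmp2 and upd2, whereas Socs36E, upd3 and Ets21C had more. The library set changed between those hours. In batch 3, old wild-type flies at 6 h and 2 h had 53.1 and 55.7 CPM of Mmp1 in climbers and 74.1 and 65.7 CPM in non-climbers. Ets21C had 9.56 and 5.45 CPM in climbers and 12.4 and 16.3 CPM in non-climbers.

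Against the unheated controls, none of the 8 genes passed at 0, 1, 2, 4, 6 or 8 h in the fit of all libraries with edgeR. At an unadjusted p under 0.05 the counts at those hours were 1, 1, 1, 2, 0 and 1. DESeq2 called 0 at each hour, and limma-voom called 1 at 0 h and 0 later. With edgeR's adjusted p the shares of genes called at those hours were 3.87%, 2.04%, 1.37%, 0.769%, 0.114% and 0.707%. Controls were taken at 4 h only, so at the other hours the heat shock and the time of collection cannot be told apart. At 4 h, Socs36E had 0.79 ± 0.28 (adjusted p = 0.191) and had more CPM than its control in 6 of 6 series, as had Ets21C (0.93 ± 0.40) and puc (0.45 ± 0.22). The Socs36E levels at 4 h were 27.6 CPM in ablated old flies against 18.8 CPM in their control, and 26.6 against 12.4 CPM in ablated young flies. In wild-type old flies they were 103.4 CPM in non-climbers and 79.2 CPM in climbers against 57.4 CPM in the control, and in wild-type young flies 35.4 and 39.4 CPM against 20.6 CPM. Every heated library of 4 h thus lay above its own control. Socs36E passed at 4 h with batch as a covariate (1.00 ± 0.26, adjusted p = 0.0421), where 1.76% of genes did. In the 4 h libraries alone it passed too (0.78 ± 0.13, adjusted p = 0.0131), where 1.27% of genes did.

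Among the wild-type libraries alone, puc was higher than in controls at 1, 2, 4, 6 and 8 h, with 0.48 ± 0.12 at 1 h (adjusted p = 0.0406) and 0.59 ± 0.12 at 8 h (adjusted p = 0.00282). The shares of genes called there were 1.42%, 3.07%, 3.98%, 4.98% and 6.56% at those hours. At 4 h puc had 156 CPM in old non-climbers and 124 CPM in old climbers against 96.9 CPM in the old control, and 105 and 93.7 CPM against 65.0 CPM in the young one. Also in these libraries, hid was higher at 6 h (0.61 ± 0.13, adjusted p = 0.00341) and at 8 h (0.90 ± 0.13, adjusted p = 4.33e-05). Both genes also passed with batch as a covariate in wild-type flies at 4, 6 and 8 h, where 3.18%, 5.25% and 2.99% of genes did. In contrast upd2 was lower than in the control in 4 of 4 wild-type series at 0, 1, 4 and 8 h, without passing at any hour. Old non-climbers at 2 h (2.66 against 2.61 CPM) and young climbers at 6 h (0.983 against 0.750 CPM) lay above their control. Climbers and non-climbers of an age share 1 control library.

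A few other genes of the lists passed with time. Over all libraries, grnd, a receptor of the ligand Eiger, had 1.45 ± 0.36 between 8 h and 0 h, Ilp8 1.19 ± 0.20, the AP-1-linked gene scaf 0.74 ± 0.23, the metalloproteinase inhibitor gene Timp 0.90 ± 0.23 and the caspase gene Dredd 0.53 ± 0.10. These brought the counts to 1 of 18 JNK components, 3 of 11 JNK and AP-1-linked genes, 1 of 7 matrix genes and 1 of 13 apoptosis genes, all higher, beside 2 of 14 JAK/STAT components and 1 of 9 Stat92E-linked genes, which were members. Over all genes 6.46% were higher and 4.03% lower, so the JNK component and apoptosis counts are near that share. In the wild-type libraries alone 7 of 11 JNK and AP-1-linked genes were higher and none lower, where 12.4% of genes passed. Of the 7 that are not members 3 were higher and none lower. Among non-members of the other lists, 2 of 17 JNK components, 3 of 12 apoptosis genes and 1 of 5 matrix genes were higher there. None of them was lower, and 0 of 11 JAK/STAT components and 0 of 8 Stat92E-linked genes passed. At 4 h against controls, Diap1, which Hid binds, was higher by 0.55 ± 0.13 (adjusted p = 0.0405), and no other gene of the 6 lists passed. In the wild-type libraries alone, the AP-1 gene kay was higher than in controls at 4 h (0.59 ± 0.13), as was hep (0.42 ± 0.10), whose kinase activates Basket, while the initiator caspase gene Dronc was lower (-0.51 ± 0.13). These 3 were chosen after their values were seen.

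Insulin-ablated flies were set against wild type within each age. In old flies all 8 genes were lower in ablated libraries, by 1.13 for upd3 to 3.90 for hid on the log2 scale, where 56.9% of all genes passed (27% lower and 29.9% higher). In young flies 2 of the 8, puc and hid, were lower, where 33% passed (14.8% lower and 18.2% higher). The 8 of 8 in old flies thus stands beside a background in which most genes passed.

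In old flies, hid had 2.66 to 5.76 CPM in 7 ablated libraries (median 4.00) and 41.3 to 103.8 CPM in 13 wild-type libraries. The fitted difference was -3.90 ± 0.42 (adjusted p = 5.33e-09). Mmp1 had 2.78 to 7.20 CPM in ablated and 22.5 to 98.0 CPM in wild-type old libraries, a difference of -3.48 ± 0.37. Neither gene overlapped between the genotypes. Mmp2 had 1.21 to 4.10 CPM in ablated and 6.89 to 29.2 CPM in wild-type old libraries (-2.68 ± 0.26). The phosphatase gene puc had 28.5 to 41.4 CPM in ablated and 73.6 to 168.5 CPM in wild-type old libraries (-1.73 ± 0.18), and Socs36E had 12.2 to 27.6 and 44.6 to 103.4 CPM (-1.89 ± 0.23). The ranges of Mmp2, puc and Socs36E did not overlap either. The share of all genes without overlap was not counted, and 56.9% of all genes passed in this comparison.

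The ligands and Ets21C came closer. In old flies upd3 had 1.34 to 4.00 CPM in ablated and 3.21 to 7.99 CPM in wild-type libraries, a difference of -1.13 ± 0.33 (adjusted p = 0.00374). Ets21C had 1.57 to 3.65 CPM in ablated and 3.17 to 16.3 CPM in wild-type old libraries (-1.29 ± 0.32, adjusted p = 0.000776). Both overlapped. For upd2 the levels were 0.0449 to 0.405 CPM in ablated and 0.372 to 2.66 CPM in wild-type old libraries (-2.66 ± 0.80, adjusted p = 0.00514). All 8 genes were lower in ablated than in wild-type flies in 7 of 7 matched pairs of old libraries.

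In young flies the levels moved with the library set. At 0 h and 1 h, hid had 48.0 and 39.7 CPM in ablated climbers and 29.9 and 32.2 CPM in wild-type climbers. In the 5 later or unheated ablated young libraries it had 5.77 to 10.8 CPM, against 29.9 to 92.8 CPM in 13 wild-type young libraries. The same split was seen in puc, with 82.4 and 83.8 CPM in ablated climbers at 0 h and 1 h, against 71.1 and 86.9 CPM in wild-type climbers, and with 26.7 to 41.0 CPM in the other ablated young libraries. Mmp1 had 11.1 and 15.0 CPM at 0 h and 1 h in ablated climbers, against 5.46 and 6.58 CPM in wild-type climbers. In the other ablated young libraries Mmp1 had 1.85 to 6.19 CPM.

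Over all libraries the young difference was -1.30 ± 0.38 for hid (adjusted p = 0.00962) and -0.75 ± 0.18 for puc (adjusted p = 0.00177). From the 0 h and 1 h libraries alone, the values were 0.39 ± 0.20 for hid and 0.17 ± 0.13 for puc, and Mmp2 was the 1 member that passed, higher in ablated flies by 0.86 ± 0.28 (adjusted p = 0.0289), where 17% of genes passed. Without those libraries 6 of the 8 genes passed, all lower, with -2.55 ± 0.18 for hid, -1.31 ± 0.09 for puc and -1.58 ± 0.29 for Mmp1, where 42.1% of genes passed (22.1% lower). With library set as a covariate none of the 8 passed in old flies, and 4.3% of all genes did. At an unadjusted p under 0.05 there were 5 of the 8 and 1873 of 11873 genes. In that fit hid had -1.02 ± 0.31 (adjusted p = 0.0532), upd3 -2.22 ± 0.74 (adjusted p = 0.081) and upd2 0.60 ± 1.37. With batch as a covariate none passed at either age, and 1.55% of all genes passed in old and 1.57% in young flies. At an unadjusted p under 0.05 there were 4 of the 8 and 2155 of 12876 genes in old flies. In young flies there were 3 of the 8 and 2470 genes. The young value of hid also missed the threshold without 4 h (-1.14), without 6 h (-1.03) and without both libraries in doubt (-0.92, adjusted p = 0.0986).

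**Figure D4:**
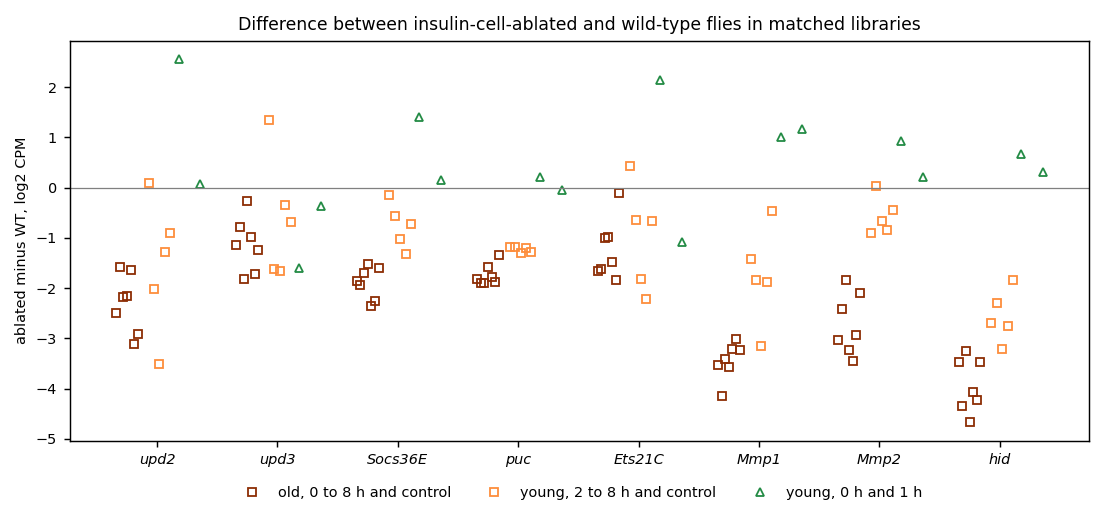
Ablated minus wild type in log2 CPM (prior count of 2) for each gene in matched libraries of the same age, hour and behaviour: 7 old pairs, 5 young pairs of 2 h to 8 h and control, and the young pairs of 0 h and 1 h as triangles. All old pairs lie below 0, and the triangles lie above 0 for upd2, Socs36E, Mmp1, Mmp2 and hid.

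Other genes of the pathways also passed in ablated old flies, where 27% of all genes were lower and 29.9% higher. The list counts here include members unless stated. Of 18 JNK components, 12 were lower and 1 higher, among them kay (-2.14 ± 0.23), the kinase genes msn (-1.17 ± 0.11), slpr (-1.05 ± 0.10) and Ask1 (-0.86 ± 0.10). Of 11 JNK and AP-1-linked genes 8 were lower and 1 higher, and of 14 JAK/STAT components 9 were lower and 2 higher. Of those that are not members, 4 of 7 and 6 of 11 were lower and 1 and 2 higher. The phosphatase gene Ptp61F had -1.12 ± 0.11, the kinase gene hop -0.38 ± 0.08 and the receptor gene dome -0.31 ± 0.08. Of 9 Stat92E-linked genes 4 were lower and 2 higher, with -1.33 ± 0.15 for vir-1 and 1.71 ± 0.48 for the stress peptide gene TotX. Of 13 apoptosis genes 5 were lower and 3 higher, and of 7 matrix genes 3 were lower and 1 higher, the matrix list including the transmembrane protease gene kuz (-3.36 ± 0.30). The shares of Stat92E-linked, apoptosis and matrix genes that passed were near the 56.9% of all genes. In young flies the counts lower and higher in ablated flies were 6 and 1 for JNK components, 1 and 0 for JNK and AP-1-linked genes, 4 and 0 for JAK/STAT components, 1 and 3 for Stat92E-linked genes, 3 and 2 for apoptosis genes and 1 and 2 for matrix genes, where 14.8% of all genes were lower and 18.2% higher.

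Cell type markers differed between the genotypes as well, and their part was not tested. Neuron markers (4 of 4 detected) summed to 28.4 to 36.5 CPM in ablated old libraries, against 81.6 to 119 CPM in wild-type old ones. They summed to 145 and 210 CPM in ablated young 0 h and 1 h libraries, 63.0 to 95.4 CPM in the other ablated young libraries and 72.9 to 123 CPM in wild-type young ones. Photoreceptor markers (4 of 4 detected) went the other way in old flies, with 583 to 633 CPM in ablated and 444 to 589 CPM in wild-type libraries. Those markers had 782 to 1020 CPM in the later or unheated ablated young libraries and 437 to 717 CPM in wild-type young ones. Gut progenitor markers summed to 6.87 to 10.8 CPM in ablated old and 15.1 to 29.5 CPM in wild-type old libraries. Enterocyte markers summed to 1702 to 3160 CPM in ablated old and 534 to 1149 CPM in wild-type old libraries, and haemocyte markers to 26.4 to 35.1 and 29.4 to 47.5 CPM. Enteroendocrine markers (4 of 4 detected) summed to 20.8 to 29.2 CPM in ablated old and 87.9 to 120.5 CPM in wild-type old libraries. Fat body markers summed to 1077 to 1523 CPM in ablated old libraries (median 1109.6), where Fbp2 was at 0. In wild-type old libraries they summed to 1433 to 2609 CPM (median 2049.7).

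Within ablated flies, age changed 4 of the 8 genes, 2 in each direction, where 37% of genes passed (15.7% higher and 21.3% lower). Higher in old ablated flies were upd3 (1.61 ± 0.35, adjusted p = 0.000475) and Ets21C (1.27 ± 0.33, adjusted p = 0.00285). Levels of upd3 were 1.34 to 4.00 CPM in old ablated libraries and 0.158 to 2.14 CPM in young ones, and those of Ets21C were 1.57 to 3.65 and 0.480 to 2.40 CPM. Ets21C was higher in the old library in 7 of 7 pairs and upd3 in 6 of 7. Lower in old ablated flies were Mmp2 (-1.07 ± 0.26, adjusted p = 0.00121) and hid (-2.18 ± 0.41, adjusted p = 0.000115). Without ablated young 0 h and 1 h the same 4 genes passed, with 1.34 ± 0.38 for upd3, 1.50 ± 0.35 for Ets21C, -0.60 ± 0.20 for Mmp2 and -0.99 ± 0.18 for hid, and 25.8% of genes called. All ablated old libraries were of batch 5, and of the ablated young ones 8 h alone was. With batch as a covariate none of the 8 passed, where 7.56% of genes did. At an unadjusted p under 0.05 there were 1 of the 8 and 2619 of 12876 genes. The values were 1.09 ± 0.86 for upd3 and 2.56 ± 0.85 for Ets21C (adjusted p = 0.0606). Without 0 h the value of Mmp2 was -0.71. Without both libraries in doubt puc was a further gene that passed, lower in old ablated flies (-0.60, adjusted p = 0.012).

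The age effect itself was lower in ablated than in wild-type flies for 5 of the 8 genes, where 36.4% of genes passed (20.8% lower and 15.5% higher). These were Mmp1 (-2.76 ± 0.50), hid (-2.60 ± 0.55), Mmp2 (-2.56 ± 0.35), Socs36E (-1.61 ± 0.32) and puc (-0.98 ± 0.26). Mmp1 was higher in old than in young flies by 2.23 ± 0.35 in wild type, against -0.54 ± 0.36 in ablated flies. For upd3 the age effects were 1.61 ± 0.35 in ablated and 2.17 ± 0.35 in wild-type flies. The upd3 difference was -0.56 ± 0.49 (adjusted p = 0.386), and that of Ets21C was -0.69 ± 0.46 (adjusted p = 0.247). Without ablated young 0 h and 1 h the same 5 genes passed, with -2.01 ± 0.37 for Mmp1 and -1.42 ± 0.23 for hid (27.8% of genes called). With library set as a covariate 5 did, where 26.7% of genes passed. Set varied only within ablated young flies, so that fit nearly repeats the one without ablated young 0 h and 1 h. None of the 8 genes passed with batch as a covariate, where 2.22% of genes passed. At an unadjusted p under 0.05 there were 0 of the 8 and 1968 of 12876 genes.

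In climbers, the change with time was also fitted as a slope, per doubling of the hours elapsed (1 h added). Between ablated and wild-type young flies the slope was lower in ablated flies for 6 of the 8 genes, where 17.7% of genes passed (11% lower and 6.68% higher). The slopes differed by -3.13 ± 0.88 for upd2, -1.27 ± 0.26 for hid, -1.24 ± 0.22 for Mmp1, -1.15 ± 0.33 for Ets21C, -0.79 ± 0.10 for Socs36E and -0.48 ± 0.08 for puc. The count of upd2 was 0 in the ablated young libraries of 6 h and 8 h, so the size of its slope rests on the fit and not on measured levels. Without ablated young 0 h and 1 h, Socs36E (-0.76 ± 0.18) and Ets21C (-2.12 ± 0.49) passed, with 0.747% of genes called. The others were then -5.92 ± 1.65 for upd2 (adjusted p = 0.0983), -0.62 ± 0.39 for Mmp1, -0.054 ± 0.31 for hid and -0.045 ± 0.11 for puc. Socs36E, Mmp1 and puc passed with batch as a covariate, where 3.53% of genes did, and upd2 (adjusted p = 0.205), Ets21C (0.191) and hid (0.108) did not. Without 0 h in all groups, 2 of the 8 passed, Socs36E and Mmp1. Without 6 h, and without both libraries in doubt, 4 passed, with upd2 and Ets21C missing the threshold in both fits. No gene of the table passed between old and young wild-type climbers or between ablated and wild-type old climbers with edgeR, with 403 and 685 genes at an unadjusted p under 0.05. DESeq2 called 17 and 34 genes there, none of them a member, and limma-voom 0. The slope of Socs36E differed by -0.34 ± 0.10 between old and young wild-type climbers (adjusted p = 1).

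Non-climbers were set against climbers of equal age and hour, in 12 pairs of wild-type libraries. None of the 8 genes passed between non-climbers and climbers at either age or in the mean of both ages, and 0% of genes passed with edgeR. None of the 8 had an unadjusted p under 0.05 in these comparisons over all libraries or in the wild-type libraries alone. DESeq2 and limma-voom called 0 of them. In wild-type libraries alone with batch, hid had 0.11 ± 0.05 in the mean of ages (edgeR, unadjusted p = 0.0455, adjusted p = 0.798). There 705 of 11373 genes had an unadjusted p under 0.05. Without ablated young 0 h and 1 h, 1 of the 8 did in that mean and none passed. Over all libraries, 429 genes of the table had an unadjusted p under 0.05 in the mean of ages, and DESeq2 called 3 genes and limma-voom 0. In that fit of all libraries the differences in the mean of ages lay between -0.45 ± 0.59 for upd2 and 0.43 ± 0.24 for Ets21C. Ets21C had 3.72 to 16.3 CPM in old non-climbers and 5.17 to 9.56 CPM in old climbers, and 0.970 to 4.25 CPM in young non-climbers and 0.223 to 2.58 CPM in young climbers. It was higher in the non-climbers of 9 of 12 pairs, and puc in 10 of 12. The puc difference was 0.12 ± 0.13. For hid the difference was 0.11 ± 0.27 and for Socs36E 0.01 ± 0.17. A behaviour effect that differed between the ages was not detected for any gene, and slopes over the hours differed between non-climbers and climbers in 0.0265% of genes, none of them a member.

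**Figure D5:**
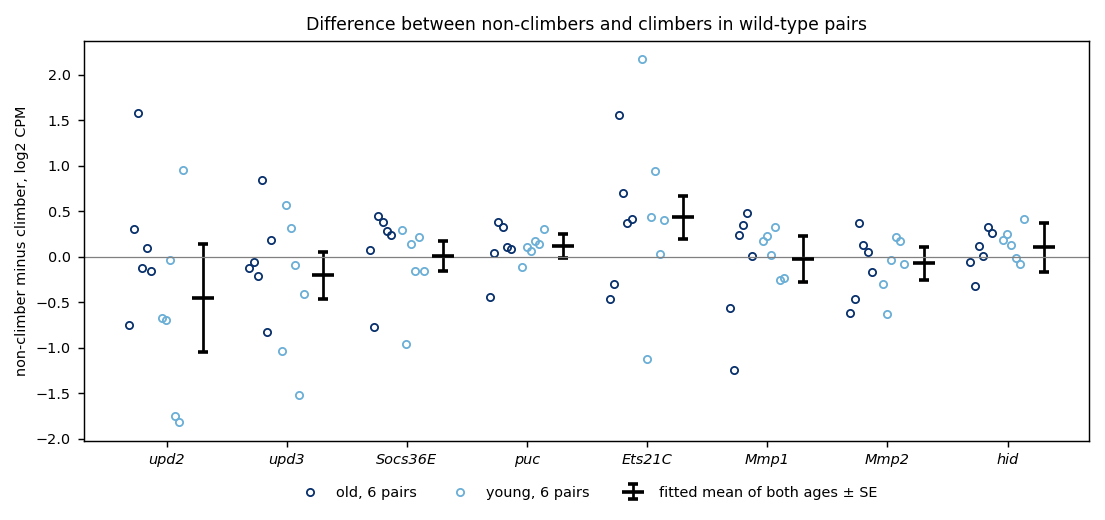
Non-climber minus climber in log2 CPM (prior count of 2) for each gene in 6 old and 6 young wild-type pairs of the same hour, with the fitted mean of both ages ± SE as a bar. The pairs scatter on both sides of 0 for all 8 genes, and the pairs of hid and puc lie closest together.

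Across libraries the members tracked one another to unequal degrees. These are Pearson correlations of log2 CPM over libraries that share genotype, age, batch and library set, and are given as a description. Over 26 wild-type libraries the closest members were Socs36E and Mmp1 (0.96), and the least close were upd3 and hid (0.54). Over 40 libraries Socs36E and Mmp1 had 0.92 and upd3 and hid 0.18. The genes of the table most like each member, among 8577 genes over 40 libraries, were Socs36E (0.81), vir-1 and cv-2 (0.79 each) for upd2. For upd3 they were CG15210 (0.89), the caspase gene Damm (0.88) and Arc1 (0.87). For Socs36E they were BNIP3 (0.94), CG15784 and Mmp1 (0.92 each), for Mmp1 Sdb (0.95), CG4393 (0.94) and Rho1 (0.93), and for Mmp2 CG4393 (0.93), aru and rgn (0.92 each). Ets21C was most like SH3PX1 (0.92), Arc1 and Stam (0.91 each). For puc they were prage, Nedd4 and cv-c (0.96 each), and for hid MESK2, zip and Nrg (0.98 each).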

How the data were processed

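The authors deposited raw counts per gene for 40 whole-fly libraries; per the labels' protocols libraries were made with the Quant 3' kit of Lexogen (V2) and read 1 was analysed, and per the submitters' processing notes STAR 2.7.5a and the dm6 build. Counting tool, annotation and use of molecular identifiers are not given in the sources used here. Positions and protein lengths are from the Ensembl annotation in dm6 coordinates, and 17596 of 17609 identifiers matched a symbol.

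Counts were fitted with edgeR 4.0.16 in R 4.3.3 (TMM, filterByExpr, robust quasi-likelihood): 1 term for each of 4 genotype-age groups, 1 for each state (control or hour) and 1 for non-climbers at each age, with 28 residual degrees of freedom and 11449 genes. The hours are thus taken to have 1 effect in every group. Climber slopes used 24 libraries, 11467 genes and 12 residual degrees of freedom, and wild-type slopes 11330 genes and 13. P-values were adjusted over all genes. Standard errors are the log2 change divided by the root of F. The fit, without its robust option, was tried on counts simulated from the same additive model with no batch or library set. Such counts cannot show whether the model suits these libraries.

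The 8 members, the 6 pathway lists and the marker lists were chosen with earlier results of these data known. Named genes are the members, up to 4 passing genes of each list by adjusted p, and the 3 genes most like each member. Alternatives were DESeq2 1.42.0, limma-voom (limma 3.58.1) with batch as a random block, RLE factors, other filters (none, or 1 CPM in 10 libraries), batch, smaller library sets and leave-one-out fits. Library set, the fits without ablated young 0 h and 1 h and those of wild-type libraries alone were chosen after seeing the data.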

Additional observations from a re-analysis of the deposited data

Results flagged for a closer look

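Differences of 2 kinds between groups passed a test of the difference itself. The age effect was lower in ablated than in wild-type flies for Socs36E (-1.61), Mmp1 (-2.76), Mmp2 (-2.56), puc (-0.98) and hid (-2.60) on the log2 scale. The slope over the hours was lower in ablated than in wild-type young climbers for upd2 (-3.13), Socs36E (-0.79), Mmp1 (-1.24), Ets21C (-1.15), puc (-0.48) and hid (-1.27) per doubling of the hours elapsed (1 h added). Both comparisons hold the ablated young libraries of 0 h and 1 h, which fell in the wild-type library set. The part of that set was not tested beyond the fits without them and, for the age effect, with library set as a covariate. Without them the same 5 age effect differences passed (27.8% of genes called), and 2 slope differences, Socs36E and Ets21C (0.747%). With batch as a covariate 0 age effect differences (2.22% of genes called) and 3 slope differences (3.53%) passed. No group of 4 to 10 libraries of 1 condition existed in which a library far from the others could be looked for.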

How the results depend on the processing

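Numbers are members past the threshold, of 8, and brackets hold the genes called in the same fit. A count without that share, here or above, does not set the members apart from other genes. With batch as a covariate the count was 0 for 8 h minus 0 h, for 6 and 8 h minus 0 and 1 h, for any difference among the hours, for age in wild-type flies, for age in ablated flies, for the difference in age effect and for ablation at both ages, 1 for heat at 4 h (Socs36E) and 3 for the slope of ablated minus wild-type young climbers. In that fit puc had -0.027 for age in wild type and 0.052 for the difference in age effect, and upd2 had 0.58 for ablation in old flies, all opposite in sign to the values over all libraries without batch. For 8 h minus 0 h, against 2 in the report, the count was 0 with no count filter, 3 with DESeq2 and 3 with limma-voom. It was 6 with library set as a covariate (1316 of 11873 genes) and 6 without ablated young 0 h and 1 h (12.5%). In wild-type libraries alone it was 7 (12.4%), and 1 there with batch (0.783%). For 6 and 8 h minus 0 and 1 h, against 1, it was 3 with DESeq2, 4 with limma-voom and 6 without ablated young 0 h and 1 h. Without both libraries in doubt, the ablated young control and 6 h, it was 3 (2111 of 11394 genes). It was 6 with library set (1949 of 11873 genes). In wild-type libraries alone it was 6 (2292 of 11373 genes), and 1 there with batch (211 of 11373 genes). For any difference among the hours, against 1, it was 2 with limma-voom, 5 with library set (1170 of 11873 genes) and 6 without ablated young 0 h and 1 h. In wild-type libraries alone it was 6 (1350 of 11373 genes), and 2 there with batch (231 of 11373 genes).

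For heat against controls, against 0, the count was 1 at 0 h with limma-voom, with library set and without ablated young 0 h and 1 h. In wild-type libraries alone it was 1 at 1, 2 and 4 h and 2 at 6 and 8 h, and with batch it was 2 at 4, 6 and 8 h. At 4 h it was 1 in the 4 h libraries alone, with library set and without ablated young 0 h and 1 h, and at 8 h it was 1 with library set and without those libraries. For ablation in young flies, against 2, it was 5 with limma-voom and 1 without both libraries in doubt (2664 of 11394 genes). It was 6 without ablated young 0 h and 1 h (42.1%), 1 from those alone (17%) and 1 with library set (1727 of 11873 genes). From those libraries alone the values were 0.86 for Mmp2, 0.17 for puc and 0.39 for hid. With library set they were again 0.86, 0.17 and 0.39, as the design makes them, because set varied only within ablated young flies. All fits with library set lean on that split of ablated young 0 h and 1 h from the rest of the group. For ablation in old flies, against 8, it was 0 with library set (4.3%), where upd2 had 0.60. For age in wild-type libraries alone with batch it was 1 (0.941%). For the slope of ablated minus wild-type young climbers, against 6, it was 2 without ablated young 0 h and 1 h (0.747%) and 4 without both libraries in doubt.

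Leaving out 1 hour or 1 control at a time gave 1 to 2 for 8 h minus 0 h, 1 to 5 for ablation in young flies, 0 to 1 for any difference among the hours, 0 to 1 for heat at 1 h, 6 to 7 for age in wild type, 4 to 5 for age in ablated flies, 5 to 6 for the difference in age effect and 2 to 7 for the slope of ablated minus wild-type young climbers, with 8 in every fit for ablation in old flies. Of 3220 alternative values of single members, 10 changed sign against a called value or call and are given above. No paired analysis by replicate was possible because each condition had 1 library and the labels carry no replicate numbers. With each pair of equal age and hour as a block, 0 members differed by behaviour, as without it. RLE in place of TMM factors moved the median of all genes by less than 0.1 on the log2 scale in each comparison. Depth limits upd2 most, with at most 51 counts in a library. The causes of these changes were not tested.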
